A study of Mus musculus with 8 samples.

Results

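Cyclins and the cyclin-dependent kinases they activate (CDKs) were followed through male meiosis in mouse: the kinases *Cdk1* and *Cdk2*, the A-type cyclins *Ccna1* and *Ccna2*, the B-type cyclins *Ccnb1* and *Ccnb2*, the E-type cyclins *Ccne1* and *Ccne2*, and the D-type cyclins *Ccnd2* and *Ccnd3*. They were taken by gene name from the deposited tables, 10 of 23343 genes. RNA was measured in pachytene spermatocytes (PS), which are in meiotic prophase, and in round spermatids (RS), the haploid cells that follow the meiotic divisions. The RNA came from adult C57BL/6 testes of *Rnf8*- and *Scml2*-dKO mice, which lack both RNF8, an E3 ubiquitin ligase, and SCML2, a germline Polycomb protein. Acetylation of histone H3 at lysine 27 (H3K27ac), a mark of active promoters and enhancers, was measured in PS and RS of wild-type adult C57BL/6 testes. Each stage of each assay had 2 biological replicates, 8 samples in all. Cells were enriched by sedimentation, for RNA on a scale that allows both stages to be taken from 1 male. The authors checked the fractions by nuclear staining and reported that the large majority of cells in each purification were of the wanted stage. No assay covered both genotypes, so a difference between the RNA and the H3K27ac values and a difference between the genotypes cannot be told apart.

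CDKs are inactive alone and are switched on by binding a cyclin. In the somatic cell cycle, D-type cyclins act first, with CDK4 and CDK6, E-type cyclins bind CDK2 for entry into DNA replication, A-type cyclins bind CDK2 and CDK1, and B-type cyclins bind CDK1 for entry into M phase. Male meiosis uses the same families with members of its own: *Ccna1* is largely restricted to male germ cells and is needed for spermatocytes to leave prophase, and CDK2 is needed in meiotic prophase, where it sits at telomeres and recombination sites. CDK1 with cyclin B drives both meiotic divisions, which lie between the stages compared here, and round spermatids do not divide again.

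Promoter sequence is shown for the 6 members whose start-site H3K27ac or RNA the comparisons below turn on and for which one was given. Each runs 5′ to 3′ along the gene, from 250 bases before the start site to 50 bases from it (RefSeq, build GRCm38.p6). Capitals mark matches on either strand to elements of cell cycle promoters, namely TTTGAA and TTCGAA (forms of the CHR, the cell cycle genes homology region, which MuvB complexes bind), CCAAT (the NF-Y site), TTNGCGC (an E2F form), CAACTG and TAACGG (MYB forms), TGACGT (part of the CRE) and TATAAA (the TATA box). GC boxes (GGGCGG) were also searched and are left in lower case.
Cdk1, chr10:69352863-69353162, minus strand: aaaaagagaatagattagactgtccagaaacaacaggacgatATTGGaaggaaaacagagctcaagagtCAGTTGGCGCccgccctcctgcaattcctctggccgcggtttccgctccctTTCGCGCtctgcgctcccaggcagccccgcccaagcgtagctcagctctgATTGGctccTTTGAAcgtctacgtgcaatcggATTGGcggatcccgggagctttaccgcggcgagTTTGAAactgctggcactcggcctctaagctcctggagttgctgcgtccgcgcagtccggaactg
Cdk2, chr10:128705002-128705301, minus strand: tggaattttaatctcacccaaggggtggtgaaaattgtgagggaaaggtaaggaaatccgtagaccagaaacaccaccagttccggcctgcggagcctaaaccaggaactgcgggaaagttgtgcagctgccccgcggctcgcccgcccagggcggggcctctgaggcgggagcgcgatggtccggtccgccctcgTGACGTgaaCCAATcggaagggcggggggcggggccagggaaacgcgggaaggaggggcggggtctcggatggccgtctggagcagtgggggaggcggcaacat
Ccna1, chr3:55055006-55055305, minus strand: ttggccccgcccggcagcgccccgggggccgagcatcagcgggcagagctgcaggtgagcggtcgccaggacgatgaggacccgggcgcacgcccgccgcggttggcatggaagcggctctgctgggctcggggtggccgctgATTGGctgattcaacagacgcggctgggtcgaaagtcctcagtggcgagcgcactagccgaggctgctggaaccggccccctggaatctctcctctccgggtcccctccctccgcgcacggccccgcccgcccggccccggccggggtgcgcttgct
Ccnb1, chr13:100786437-100786736, minus strand: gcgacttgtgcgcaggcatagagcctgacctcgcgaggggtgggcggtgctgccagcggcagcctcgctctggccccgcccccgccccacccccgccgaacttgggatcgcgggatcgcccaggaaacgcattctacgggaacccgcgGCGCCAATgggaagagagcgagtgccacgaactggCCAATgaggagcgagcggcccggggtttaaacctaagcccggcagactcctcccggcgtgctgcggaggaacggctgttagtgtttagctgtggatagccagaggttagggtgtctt
Ccnb2, chr9:70421505-70421804, minus strand: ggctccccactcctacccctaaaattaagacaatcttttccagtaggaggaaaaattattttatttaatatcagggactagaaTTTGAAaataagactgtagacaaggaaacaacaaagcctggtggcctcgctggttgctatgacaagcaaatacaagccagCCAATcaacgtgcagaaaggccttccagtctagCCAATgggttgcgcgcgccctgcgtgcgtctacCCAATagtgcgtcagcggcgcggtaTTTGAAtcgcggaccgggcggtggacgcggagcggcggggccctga
Ccnd3, chr17:47593217-47593516, plus strand: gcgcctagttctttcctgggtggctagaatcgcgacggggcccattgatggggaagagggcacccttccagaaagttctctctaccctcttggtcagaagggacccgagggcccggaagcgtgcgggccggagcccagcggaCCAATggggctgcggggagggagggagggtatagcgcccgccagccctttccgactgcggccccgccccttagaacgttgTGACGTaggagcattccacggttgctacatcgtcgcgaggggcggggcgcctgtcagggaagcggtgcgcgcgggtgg

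The *Cdk1* promoter held the most kinds of element. It had TTTGAA at positions -71 and -15, counted for the first base of a match with the start site as 1, CCAAT at -208, -80 and -48, TTNGCGC at -178 and -130, and CAACTG at -181, which overlaps the E2F match at -178. The *Ccnb2* promoter had TTTGAA at -167 and 5 and CCAAT at -87, -54 and -21. *Ccnb1* had CCAAT at -99 and -67, with an E2F match at -102 that overlaps the first of these. *Ccna1* had a single CCAAT at -107. *Cdk2* had TGACGT at -54 beside CCAAT at -45, and *Ccnd3* had TGACGT at -28 and CCAAT at -108. Over the 8 promoter entries of the 7 members with one, TTTGAA was in 2, against 17.9% of 32851 promoters of the same length. CCAAT was in 6 of 8, against 37.4% of promoters, TTNGCGC in 2 against 6.36%, CAACTG in 1 against 13.7%, and TGACGT in 2 against 7.51%. GGGCGG was in 8 of 8 against 35.7%. TTCGAA was in 0 of 8, against 1.56% of promoters, TAACGG in 0 of 8 against 2.76%, and TATAAA in 0 of 8 against 13.6%. These are letter matches in a fixed window, without a measurement of binding. The member promoters held 15 to 41 CpG dinucleotides each, against a median of 7 over all promoters.

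The libraries held 9655405 to 12289694 reads on genes, of which the members took 0.0736% to 0.0774%. *Rnf8* had 4.02 and 4.88 RPKM in PS and 2.15 and 2.09 in RS, and *Scml2* 0.724 and 1.71 in PS and 0.649 and 1.72 in RS, so reads of both genes were still counted in the dKO libraries. Without a wild-type RNA library here, these values do not check the genotype. The stage labels were set against marker genes: 9 of 10 spermatid markers were higher in RS, and their summed level went from 578 and 938 RPKM in PS to 13527 and 14283 in RS. Of 9 spermatocyte markers, 6 were lower and 1 was higher in RS, and their summed level went from 663 and 546 RPKM to 213 and 306. By the rule for calls given below, 30.4% of all genes tested were higher in RS and 27.6% lower. Markers of other testis cells also differed. All 6 Leydig cell markers were lower in RS (summed 738 and 551 RPKM in PS, 68.6 and 42.6 in RS), 3 of 3 macrophage markers in the tables, of 4 listed, were higher (summed 2.88 and 1.98 against 40.1 and 34.3), and 5 of 8 spermatogonial markers were higher (summed 24.6 and 17.1 against 36.1 and 31.5). Of 4 Sertoli cell markers tested, of 7 listed, 2 were higher in RS, and the 7 summed to 7.84 and 3.45 RPKM in PS and 13.2 and 8.78 in RS. Of 4 peritubular markers, 1 was higher in RS, and they summed to 4.84 to 5.13 RPKM in every library. The 4 blood markers summed to at most 0.369 RPKM, with 3 of them at 0 in every library. The part of these cells in the values below was not tested. In bulk RNA, fewer cells of a type and less RNA per cell cannot be told apart.

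At the RNA level both kinases fell from PS to RS, while no A- or B-type cyclin was called lower. The RNA of *Cdk2* fell 8.32-fold and that of *Cdk1* 3.22-fold. *Ccnb1*, *Ccna2*, *Ccnd2* and *Ccnd3* rose, *Ccne2* fell, and *Ccna1*, *Ccnb2* and *Ccne1* did not pass the test for a change of at least 1.5-fold. A gene counted as called with an adjusted p (Benjamini-Hochberg) under 0.05 and a change of at least 1.5-fold in edgeR's quasi-likelihood test on read counts. By this rule 7 of the 10 members were called, against 58.0% of the 14647 genes tested, so the share of members called was near that of all genes. Called genes were higher in RS for 30.4% of those tested and lower for 27.6%, and 4 members were higher and 3 lower. The median log2 fold change was 0.39 over the members and 0.01 over all genes tested.

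**Figure D1:**
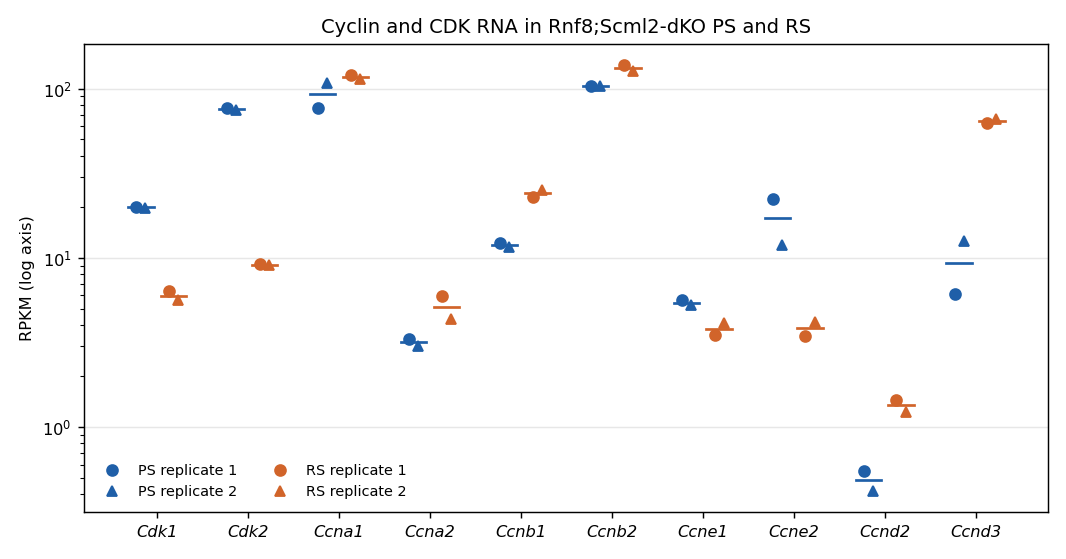
RPKM (reads relative to the length of the transcript and the depth of the library, log axis) of the 10 members in each RNA-seq library of dKO PS (blue) and RS (orange). Circles are replicate 1, triangles replicate 2 and bars the mean of 2. *Cdk2* lies at 74.6 to 76.5 RPKM in PS and near 9.1 in RS, and *Ccnd3* moves the other way.

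*Cdk2*, on chromosome 10, had 76.5 and 74.6 RPKM in the PS libraries and 9.13 and 9.11 in the RS libraries. The replicates lay close together and the stages far apart. The log2 fold change was -3.06 ± 0.13 (SE, n = 2 per stage; edgeR, adjusted p = 3.29e-06). *Cdk1*, on the same chromosome, had 19.9 and 19.7 RPKM in PS and 6.32 and 5.64 in RS, again without overlap. Its log2 fold change was -1.69 ± 0.16 (edgeR, adjusted p = 3.62e-05). *Cdk2* exceeded *Cdk1* in every library, by 3.84 and 3.78 times in PS and by 1.44 and 1.61 times in RS. The summed level of both kinases went from 96.5 and 94.4 RPKM to 15.5 and 14.7 RPKM.

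Among the A-type cyclins, the germline member was the abundant one. *Ccna1* had 76.7 and 108 RPKM in PS and 120 and 113 RPKM in RS. Its PS replicates differed more from each other (1368 and 1878 reads) than the higher of them did from RS, and the difference was not called (log2 fold change 0.37 ± 0.18; edgeR, adjusted p = 0.0949). Without PS replicate 2 it was called, at 0.70, and without PS replicate 1 it was 0.11 (edgeR, adjusted p = 0.508). *Ccna2*, the A-type cyclin of somatic cells, had 3.31 and 3.03 RPKM in PS and 5.91 and 4.38 in RS. It rose by 0.74 ± 0.23 on the log2 scale (edgeR, adjusted p = 0.0193), but this rested on RS replicate 1: without it the log2 fold change was 0.59 with an adjusted p of 0.157. It also fell under 1.5-fold, at 0.55, in limma on log2(RPKM + 1). *Ccna1* exceeded *Ccna2* 23.2- and 35.7-fold in the PS libraries and 20.3- and 25.9-fold in the RS libraries, ranges that overlap. *Exosc9*, on the other strand, overlaps the *Ccna2* rows. The authors describe amplification to double-stranded cDNA and no step that keeps the strand, so reads of both genes may not be told apart.

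Of the B-type cyclins, *Ccnb1*, which is essential for cell division, rose 2.08-fold. It had 12.2 and 11.6 RPKM in PS and 22.9 and 25.3 in RS, with tight replicates in both. The log2 fold change was 1.06 ± 0.15 (edgeR, adjusted p = 3.41e-04). *Ccnb2*, which mice can live without, was the most abundant member in PS replicate 1 and in both RS libraries, with 102.8 and 103.2 RPKM in PS and 137 and 128 in RS. The stages did not overlap, but the change stayed under 1.5-fold (log2 fold change 0.40 ± 0.12; edgeR, adjusted p = 0.0167). *Ccnb2* exceeded *Ccnb1* 8.45- and 8.88-fold in PS and 5.98- and 5.06-fold in RS. The A- and B-type cyclins together summed to 195 and 226 RPKM in PS and to 286 and 271 RPKM in RS, in the same libraries in which the kinase sum was lower in RS.

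The E-type cyclins differed between themselves. *Ccne2* had 22.4 and 11.9 RPKM in PS and 3.46 and 4.20 in RS. The PS replicates were almost a factor of 2 apart (768 and 398 reads), yet both lay above RS, and the log2 fold change was -2.13 ± 0.28 (edgeR, adjusted p = 2.63e-04). *Ccne1* had 5.61 and 5.25 RPKM in PS and 3.51 and 4.12 in RS, lower without overlap but not called (log2 fold change -0.47 ± 0.22; edgeR, adjusted p = 0.0865). *Ccne2* exceeded *Ccne1* 3.99- and 2.27-fold in the PS libraries, and in RS the 2 genes were level, at ratios of 0.985 and 1.02. The 2 annotated start sites of *Ccne2* are close together, and the second took 32 and 10 reads in PS and 0 and 15 in RS. *Ints8*, on the other strand, overlaps *Ccne2*.

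Among the members, the D-type cyclins *Ccnd3* and *Ccnd2* had the largest rises. *Ccnd1*, a D-type cyclin outside the members, rose by 1.07 on the log2 scale, from 2.61 and 1.61 to 4.51 and 4.07 RPKM. *Ccnd3* had 6.12 and 12.6 RPKM in PS (138 and 276 reads) and 62.4 and 65.7 RPKM in RS (1728 and 1536 reads). Every RS value lay far above PS, although the PS replicates differed by a factor of 2, and the log2 fold change was 2.81 ± 0.29 (edgeR, adjusted p = 6.39e-05), or 7.04-fold. The size depended on the PS replicates, with 5.10-fold without PS replicate 1 and 11.2-fold without PS replicate 2, called in both cases. Reads were split between 2 start sites on chromosome 17. The downstream site, at 47593467, took all 138 and 276 reads in PS and 1681 and 1411 in RS, while the upstream site, at 47505051, took 0 and 0 in PS and 47 and 125 in RS. This division comes from the authors' assignment of shared reads to isoforms. *Bysl*, on the other strand, overlaps *Ccnd3*. *Ccnd2* was the rarest member, with 0.547 and 0.421 RPKM in PS and 1.45 and 1.24 in RS (27 to 117 reads). It rose by 1.51 ± 0.28 on the log2 scale (edgeR, adjusted p = 0.00153). *9330179D12Rik*, on the other strand, overlaps it.

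By level within a stage, *Ccnb2* (103 ± 0.3 RPKM, SD, n = 2) and *Ccna1* (92.3 ± 22.1) led in PS and overlapped. *Cdk2* (75.6 ± 1.3) came next, just under the lower *Ccna1* library, and *Cdk1* (19.8 ± 0.15) and *Ccne2* (17.2 ± 7.4) overlapped. *Ccnb1* (11.9 ± 0.38) and *Ccnd3* (9.35 ± 4.57) overlapped each other and *Ccne2*, and *Ccne1*, *Ccna2* and *Ccnd2* followed in that order. In RS *Ccnb2* (132 ± 6.7) lay above *Ccna1* (117 ± 4.7), *Ccnd3* (64.0 ± 2.4) and *Ccnb1* (24.1 ± 1.6), each clear of the next. *Cdk2* (9.12 ± 0.02) stood apart below them, *Cdk1* (5.98 ± 0.48) overlapped *Ccna2* (5.14 ± 1.08), and *Ccna2* was clear of *Ccne2* (3.83 ± 0.53) and *Ccne1* (3.82 ± 0.44), which overlapped. *Ccnb2* had a higher RPKM than 95.4% of the genes tested in RS, *Cdk2* than 92.2% in PS and 61.2% in RS, and *Ccnd3* than 59.9% in PS and 89.6% in RS.

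The regulators of these kinases were read in the same fit, as 104 genes in 7 role groups, of which 103 were tested. There were 66 called, 26 higher and 40 lower in RS, or 64.1% against the 58.0% of all genes, and their median log2 fold change was -0.18. Over all genes tested 30.4% were called higher and 27.6% lower, which the counts of each group below are to be read against. Of 18 genes in the group of other cyclins, which also holds *Ccnb1ip1*, not itself a cyclin, 6 were higher and 4 lower. *Ccnb3*, a B-type cyclin of meiosis, had 0.617 and 0.751 RPKM in PS and 2.92 and 3.52 in RS (log2 fold change 2.27), and *Ccng2* rose by 1.90. *Ccnb1ip1*, a ligase needed for crossovers, fell by 2.30, and *Cntd1*, a cyclin-related crossover factor, fell by 1.82, from 53.9 and 60.5 to 14.4 and 17.3 RPKM.

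Of 14 other CDKs and CDK partners, 3 were higher and 7 lower. *Cks2*, the small CDK-binding subunit that mice need for meiosis, had 121 and 113 RPKM in PS and 7.62 and 10.2 in RS, a drop of 12.8-fold and the largest fall in the regulator list. *Cdk9*, the kinase of transcription elongation, fell by 1.66 on the log2 scale. *Cdk16*, a kinase needed for spermatid differentiation, rose from 3.89 and 3.85 to 20.9 and 23.1 RPKM, and its relative *Cdk18* rose by 1.84.

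Of 9 CDK inhibitors, 3 were higher and 3 lower. The INK4 inhibitors *Cdkn2d* and *Cdkn2c*, which act on CDK4 and CDK6, were abundant in PS and fell. *Cdkn2d* had 105 and 118 RPKM in PS and 18.7 and 19.4 in RS, and *Cdkn2c* 83.5 and 83.7 in PS and 30.0 and 30.8 in RS. The CIP/KIP inhibitors *Cdkn1c* (log2 fold change 2.65) and *Cdkn1b* (1.53) rose at low levels, *Cdkn1b* from 3 and 4 reads to 13 and 10. *Cdkn3* was the other gene of the group called higher (log2 fold change 1.04). It had 107 and 97.9 RPKM in PS and 227 and 183 in RS.

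The group around the phosphorylation of CDK1 held the enzymes that set its inhibitory phosphates, the MASTL pathway, which acts on the phosphatase opposing CDK1, and *Hspa2*, a chaperone of CDK1. Of 9 genes tested, 4 were higher and 3 lower, against the 58.0% of all genes called in either direction. The phosphatase genes *Cdc25c* and *Cdc25a*, whose products remove those phosphates, rose, *Cdc25c* from 3.30 and 3.48 to 16.6 and 16.4 RPKM and *Cdc25a* from 17.4 and 19.7 to 52.9 and 50.5 RPKM. The kinases that add them moved in opposite directions. *Pkmyt1* fell from 38.6 and 45.5 RPKM in PS to 14.3 and 15.8 in RS, and *Wee1*, named after its values were seen, rose from 7.70 and 6.61 to 15.8 and 15.02 RPKM (log2 fold change 1.15; edgeR, adjusted p = 2.76e-04). *Ensa*, which inhibits the phosphatase that opposes CDK1, fell by 1.31 on the log2 scale. In the same pathway *Mastl* was called higher, at 0.97, and *Arpp19* was not called, at -0.18.

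Of 24 genes of the anaphase-promoting complex (APC/C), which directs cyclin B to degradation, and the spindle checkpoint, 2 were higher and 12 lower. Over all genes tested 58.0% were called, 30.4% higher and 27.6% lower. *Fbxo43*, the APC/C inhibitor of germ cells, fell 11.3-fold, from 16.5 and 19.7 to 1.17 and 1.98 RPKM. The checkpoint gene *Mad1l1* fell by 2.17 on the log2 scale, and the APC/C subunit genes *Anapc10* and *Cdc16* rose by 1.24 and 0.64. Of 9 M-phase kinases and partners, 1 was higher and 4 lower. *Plk1*, a kinase of M-phase entry, rose from 34.7 and 39.9 to 68.4 and 69.1 RPKM, while *Cdca8* and *Aurkb* of the chromosomal passenger complex fell by 2.04 and 1.47 on the log2 scale.

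Of 20 genes of the RB, E2F and MuvB group, which act on cell cycle promoters, 7 were higher and 7 lower. *Rbl2*, the pocket protein of resting cells, had 2.95 and 3.79 RPKM in PS and 26.6 and 21.5 in RS, and the repressive *E2f5* rose by 2.22 on the log2 scale. *Lin52*, a MuvB subunit, had 12.8 and 12.01 RPKM in PS and 1.07 and 1.82 in RS, and *Tfdp1*, the dimer partner of E2F proteins, fell by 2.45 on the log2 scale.

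**Figure D2:**
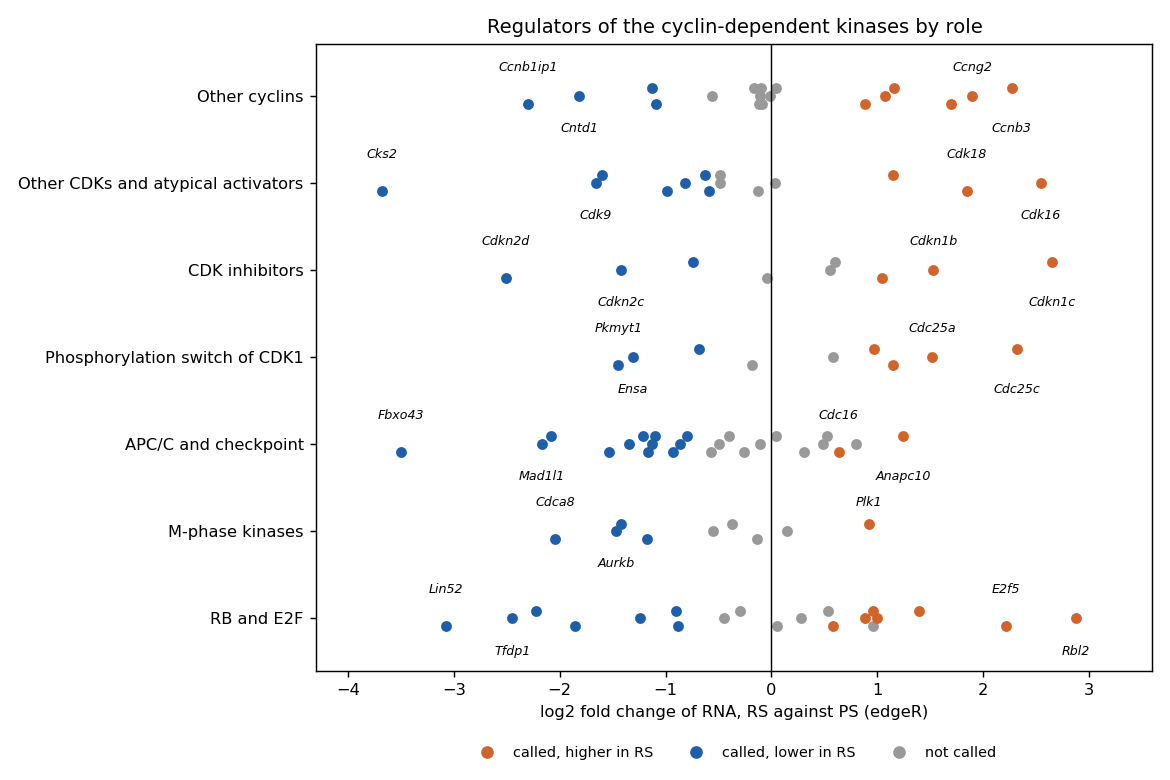
Log2 fold change of RNA between RS and PS (edgeR, x axis) for the 103 tested regulators, 1 point per gene, by role group. Points are orange where called higher in RS, blue where called lower and grey otherwise, with small vertical offsets for legibility; the named genes are the extreme calls of each group. Blue points outnumber orange ones most in the APC/C and checkpoint group, 12 against 2 of 24 genes. Over all genes tested 27.6% were called lower and 30.4% higher.

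H3K27ac was then read at the start sites of the same genes in wild-type cells. Its level is the fold enrichment of the strongest peak summit within 2 kb of the start site over the background of that library, and 0 where no peak was called. The lists held 41095 to 74919 peaks, the highest number in RS replicate 1, and 33 to 61 per list belonged to a member. In each stage 9 of 10 members had a peak at the start site in both replicates, *Ccnd2* being the exception, against 55.2% of all genes in PS and 50.6% in RS. In the values as deposited, the acetylation of *Cdk1* fell the most among the members, and it was called lower at *Cdk2*, *Ccnb2* and *Ccna1* as well. Over all start sites tested 15.9% were called lower, and the calls at *Ccnb2* and *Ccna1* were lost after centring, as described below. 

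**Figure D3:**
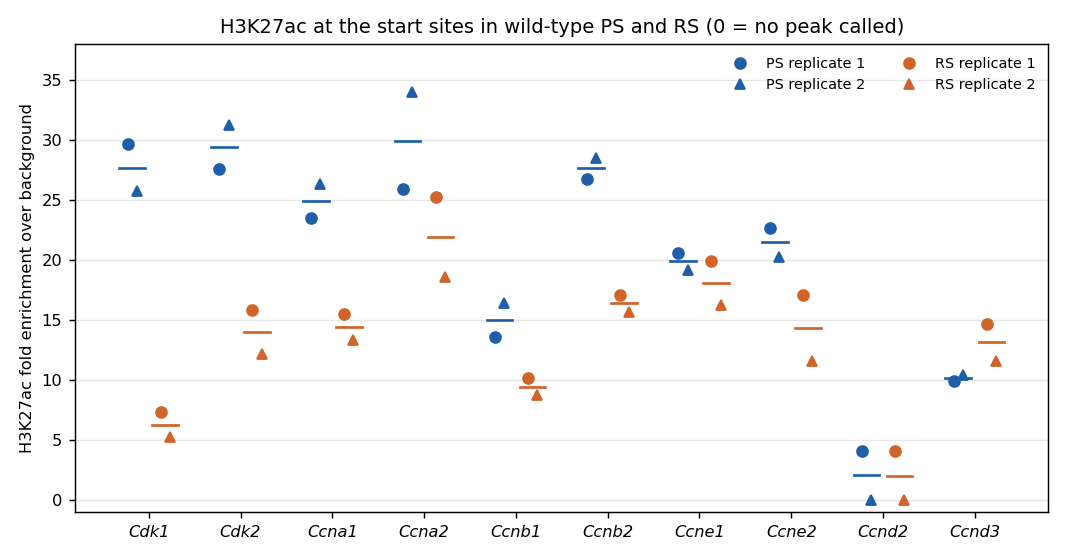
H3K27ac fold enrichment at the start site of each member in wild-type PS (blue) and RS (orange). Circles are replicate 1, triangles replicate 2, bars the mean of 2, and 0 means that no peak was called. *Cdk1* lies at 25.8 and 29.6 in PS and at 5.22 and 7.32 in RS.

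Differences were tested by limma on log2(1 + fold enrichment), with the same thresholds. Of 13643 start sites 21.2% were called, 15.9% lower and 5.23% higher in RS, and 4 of the 10 members were called, all lower. RS values were lower at most sites, with a median difference of -0.43 on the log2 scale. When each library was centred on the median of the sites with a peak in every sample, the median difference was -0.03, and 25.2% of sites were called, 1769 higher and 1670 lower, in place of 714 higher and 2174 lower. After centring 3 members were called, *Cdk1* and *Cdk2* lower and *Ccnd3* higher.

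At *Cdk1*, start site 69352912 on chromosome 10, the fold enrichment was 29.6 and 25.8 in PS and 7.32 and 5.22 in RS. The strongest summit lay 171 to 313 bases downstream of the start site in all 4 libraries, beyond the end of the promoter sequence shown above. The log2 difference was -1.99 ± 0.22 (SE, n = 2 per stage; limma, adjusted p = 0.0162), and -1.58 ± 0.14 after centring (limma, adjusted p = 0.00913). Among all tested sites its mean was above 84.5% in PS and above 24.5% in RS. With summits of -log10 q of at least 5 only, no peak was left in RS replicate 2, and the difference of -3.31 was not called (limma, adjusted p = 0.115).

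At *Cdk2*, start site 128705051 on chromosome 10, the fold enrichment was 27.6 and 31.2 in PS and 15.9 and 12.2 in RS, with the summit 254 to 433 bases downstream. The log2 difference was -1.02 ± 0.19 (limma, adjusted p = 0.0312) and -0.61 ± 0.08 after centring (limma, adjusted p = 0.0103). When a PS replicate was left out the difference was of similar size but not called, at -1.11 ± 0.51 without replicate 1 (limma, adjusted p = 0.145) and -0.94 ± 0.51 without replicate 2 (limma, adjusted p = 0.281). The peak was also assigned to *Pmel*, the gene next to it.

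*Ccna1* had 23.5 and 26.3 in PS and 15.5 and 13.4 in RS (log2 difference -0.75 ± 0.16; limma, adjusted p = 0.0424). *Ccnb2* had 26.8 and 28.5 in PS and 17.1 and 15.7 in RS (log2 difference -0.72 ± 0.14; limma, adjusted p = 0.0350). For both genes the stages were well apart, but the calls were lost after centring, at differences of -0.34 (limma, adjusted p = 0.0605) and -0.31 (limma, adjusted p = 0.105). Both calls were also lost without either PS replicate and without RS replicate 2, with differences that moved little, -0.83, -0.67 and -0.65 for *Ccna1* and -0.76, -0.68 and -0.66 for *Ccnb2*. The peak at *Ccna1* was shared with *4931419H13Rik*.

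The other members were not called in the values as deposited. *Ccnb1* had 13.6 and 16.4 in PS and 10.2 and 8.71 in RS (log2 difference -0.61 ± 0.20; limma, adjusted p = 0.0977), and *Ccne2* had 22.6 and 20.3 in PS and 17.1 and 11.6 in RS (-0.57 ± 0.23; limma, adjusted p = 0.143). Both were called lower without RS replicate 1, at -0.72 and -0.83. *Ccna2* had 25.9 and 34.0 in PS and 25.2 and 18.6 in RS, and *Ccne1* had 20.6 and 19.2 in PS and 19.9 and 16.3 in RS, where the stages overlap. *Ccnd2*, the member with the least RNA, had 4.12 and 4.07 in replicate 1 of PS and RS and no peak in replicate 2 of either, and these intervals were assigned to the overlapping *9330179D12Rik*.

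*Ccnd3* was the only member with a higher mean in RS. At its downstream start site it had 9.88 and 10.4 in PS and 14.6 and 11.6 in RS, a log2 difference of 0.33 ± 0.20 (limma, adjusted p = 0.266), and 0.75 ± 0.11 after centring (limma, adjusted p = 0.0132). At its upstream start site the values were 4.53 and 3.29 in PS and 4.07 and 4.64 in RS, which overlap. In an intron of the longer transcripts, the summits at positions -2523 to -2253 from the downstream start site had 6.17 and 8.22 in PS and 20.3 and 14.5 in RS, higher than at the start site itself in both RS libraries. In RS replicate 1 a single interval of 7842 bases covered this summit and the start site.

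**Figure D4:**
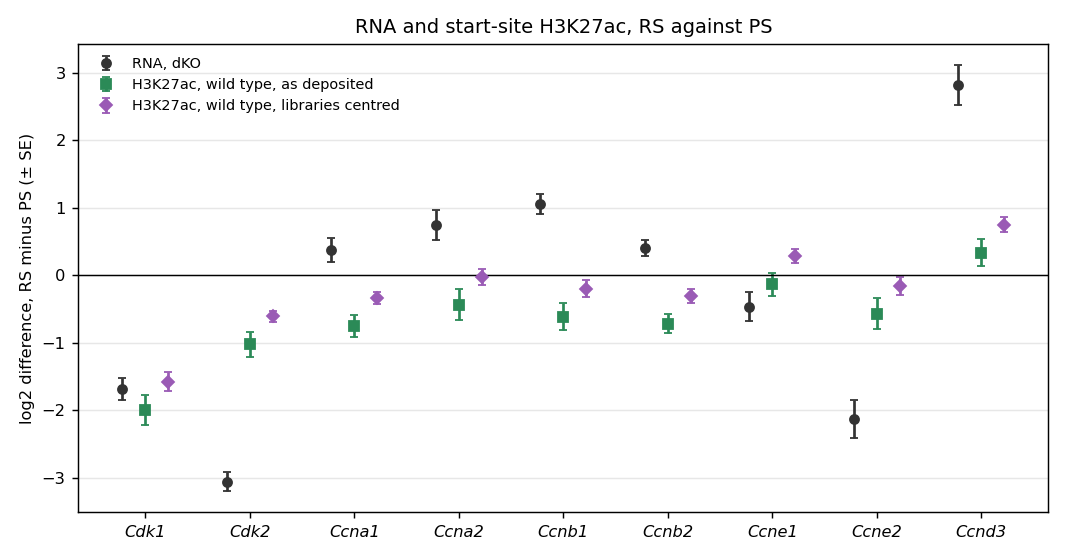
Log2 difference between RS and PS (± SE from the fits, n = 2 per stage) for RNA in dKO cells (black), start-site H3K27ac in wild-type cells as deposited (green) and after centring each library (purple). *Ccnd2* is left out because it had peaks in only 1 replicate of each stage; *Cdk1* and *Cdk2* lie below 0 in all 3 series and *Ccnd3* above.

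Side by side, without a test since the genotypes differ, the kinases had lower RNA and lower start-site H3K27ac in RS. *Ccnd3* had higher RNA, with higher H3K27ac called only after centring. *Ccnb1* and *Ccna2* had higher RNA, with log2 differences in H3K27ac of -0.61 and -0.44 as deposited and of -0.20 and -0.02 after centring, none of them called. *Ccna1* and *Ccnb2* were called lower in H3K27ac as deposited but not after centring, while their RNA differences of 0.37 and 0.40 were not called. *Ccne2* had lower RNA, at -2.13, with H3K27ac differences of -0.57 as deposited and -0.16 after centring, neither called. *Ccne1* was called in neither assay. *Cdk1* and *Cdk2* stood in opposite order in the assays, with the larger log2 difference in H3K27ac at *Cdk1* and in RNA at *Cdk2*.

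Intervals away from the start sites were compared as regions merged over the 4 lists, a step chosen after the data were seen. A region counted as higher in a stage when both of its replicates lay above both of the other and the mean differed by at least 1.5-fold on the log2(1 + fold enrichment) scale. Members had 47 merged regions outside the 2 kb windows, of which 19 had a peak in at least 2 libraries. Of these 11 were higher in RS and 4 in PS. Of the 11, 8 had no peak in either PS list, so that they passed the filter only through RS and had to count as higher there, and 3 had peaks in both stages. The same rule gave 48.1% and 32.1% over the 23906 regions of the genome away from all start sites, which passed the same filter, and the counts are given as a description only. The assignment of a region to a gene is by nearest gene only.

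**Figure D5:**
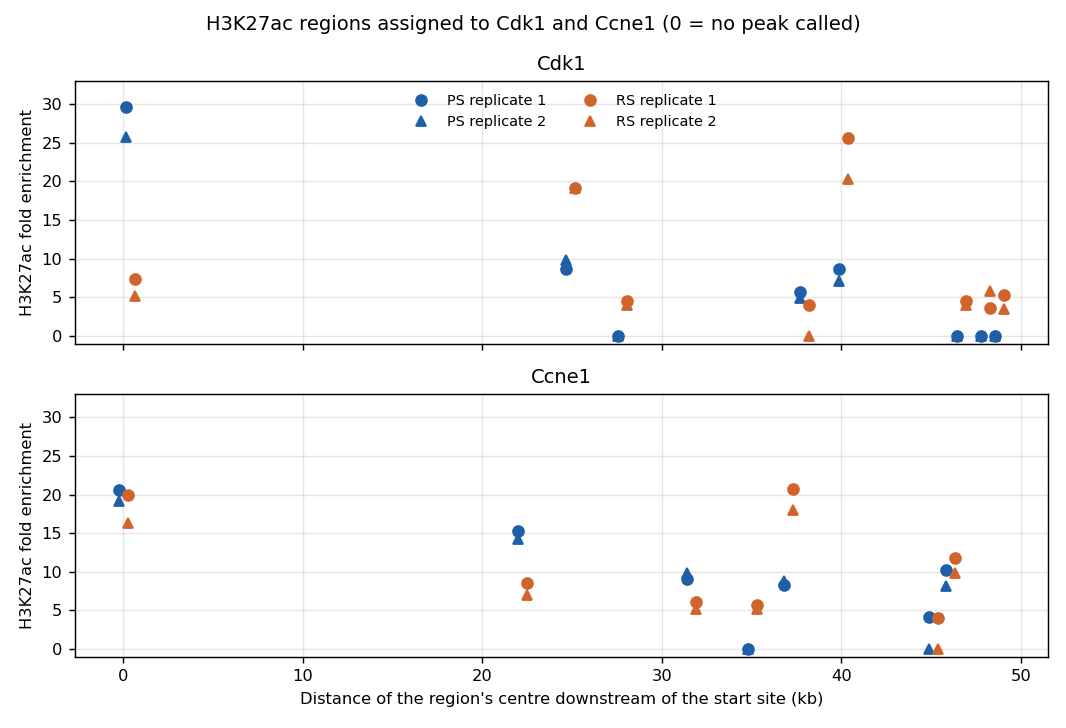
H3K27ac fold enrichment of the regions assigned to *Cdk1* (top) and *Ccne1* (bottom) with a peak in at least 2 libraries, by distance of the region's centre from the start site in kb. Colours and symbols are as in the other plots, with PS and RS drawn slightly apart and 0 for no peak. At *Cdk1* the start site and a weaker region centred at 37.9 kb are higher in PS, and the strong regions centred at 24.9 and 40.1 kb are higher in RS.

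*Cdk1* had 2 strong regions beyond the end of the gene, in the direction of transcription. In the nearer one the strongest summits lay 24949 to 25064 bases from the start site, and the fold enrichment was 8.64 and 9.87 in PS and 19.1 and 19.2 in RS. In the farther one the summits lay 40371 to 40549 bases away, and the values were 8.64 and 7.13 in PS and 25.6 and 20.3 in RS. The stages did not overlap in either, and both moved opposite to the start site of the gene. The RS values in the farther region were near those of the *Cdk1* start site in PS. A weaker region centred at 37.9 kb moved the same way as the start site. It had 5.76 and 4.93 in PS, 4.07 in RS replicate 1 and no peak in RS replicate 2. The remaining *Cdk1* regions with a peak in at least 2 libraries had none in PS.

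*Ccne1* had regions that moved in both directions while its start site overlapped between stages. At 37292 to 37407 bases from the start site, the fold enrichment was 8.23 and 8.77 in PS and 20.7 and 18.0 in RS. At 21817 to 22721 bases it was 15.2 and 14.3 in PS and 8.54 and 6.97 in RS, and in the region centred at 31.7 kb it was 9.05 and 9.87 in PS and 6.10 and 5.22 in RS. A region centred at 46.1 kb had 10.3 and 8.22 in PS and 11.8 and 9.87 in RS, which overlap. The *Ccnb2* region centred at 17.4 kb had 6.996 and 7.13 in PS and 5.29 and 3.48 in RS, lower in RS as at its start site.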

How the data were processed

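H3K27ac ChIP-seq (ChIPmentation) and RNA-seq were grouped by the titles in the labels. The submitters' processing notes name build mm10, Bowtie 1.1.1, MACS2 2.1.0.20140616 and STAR 2.4.2a; the authors used the first 2 tools for ChIP-seq alignment and peaks and STAR for RNA-seq. The deposited RNA tables hold unnormalized read counts and RPKM per isoform group, from uniquely aligned reads that the authors divided between isoforms; rows were summed per gene. The deposited peak lists hold, per sample, the pileup signal, the fold enrichment (a ratio to the library's background of 0.723 to 1.46 fragments) and the significance of each summit as -log10 p and -log10 q. Read totals for ChIP-seq were not used here.

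The members and gene lists were chosen with earlier results of these data known. Genes were kept where 2 or more libraries had 10 or more counts, and tested with edgeR 4.0.16 (TMM, quasi-likelihood) in R 4.3.3. Start sites with a peak in at least 2 libraries were tested with limma 3.58.1 (trend) on log2(1 + fold enrichment). DESeq2 1.42.0, other scaling, filters, windows of 1 and 5 kb, a -log10 q of at least 5, the replicate block and leaving out each replicate were alternatives. Scripts (Python 3.11.15, pandas 2.3.3, numpy 2.4.6, matplotlib 3.10.9) were tested on simulated data. With 2 samples per group an exact permutation test of a single value cannot pass the threshold, and none was run. *Wee1*, *Cdkn3*, *Mastl*, *Arpp19* and *Ccnd1* were named after their values were seen. Other named regulators are up to 2 called genes with the largest rise and up to 2 with the largest fall in each role group. The RNA was amplified before library preparation, so reads are not independent molecules.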

Additional observations from a re-analysis of the deposited data

How the results depend on the processing

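The counts of RNA calls stayed within 1.5 times under DESeq2, DESeq2-type size factors, no filter, no fold threshold, limma on RPKM and the replicate block. They were 6 to 8 of 10 members and 61 to 75 regulators, while 46.9% to 64.5% of all genes tested were called. With a library left out, every member kept the sign of its log2 fold change. In these fits the lone remaining sample was assumed to vary like the other stage. The count of members with a start-site peak in both replicates was 9 in PS and 8 or 9 in RS under each window, threshold and peak assignment, and 10 members had a peak in at least 1 replicate of each stage.

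H3K27ac calls were less stable. With a library left out, 1 to 6 members were called, and over all sites 1153 and 825 without PS replicates 1 and 2 and 7054 without RS replicate 1, against 2888. Requiring a peak in all 4 samples gave 4608. Uncalled differences changed sign at *Ccne1* (-0.13 in the main values, 0.28 after centring, -0.27 to 0.0046 with a library left out), at *Ccnd2* (-0.0067, then 0.087 after centring and -1.18 to 1.16 with a library left out) and at *Ccnd3* (-0.30 with a window of 5 kb, where the strongest summits, 15.6 and 20.3 in PS and 16.7 and 12.2 in RS, are those within reach of its upstream start site). For the other alternatives the cause was not tested.

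Replicate numbers are shared between stages, but the labels do not tie them to an animal. Deviations of same-numbered libraries correlated at 0.22 over 14647 genes in RNA, at 0.081 over the 7285 genes above 4 log2 CPM, and at 0.0025 over 13643 sites in H3K27ac. With the number as a replicate block, 7 members and 67 regulators were called in RNA, and 2 members, *Cdk1* and *Cdk2*, in H3K27ac, where 4 were called without it. Over all genes 59.6% were called with the block in RNA, and over all sites 16.5% in H3K27ac.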
